A study of Mus musculus with 12 samples.

Results

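The caveolin genes Cav1 and Cav2 and the flotillin genes Flot1 and Flot2 encode the scaffold proteins of 2 kinds of cholesterol-rich membrane domain. They were found by symbol in the deposited expression table, where each of the 4 has 1 locus, out of 40597 loci in all. Total RNA was sequenced from neurospheres, which are floating clusters of neural stem and progenitor cells; these had been raised from hypothalami of male and female C57Bl/6 mice dissected at embryonic day 14.5. After 3 passages the spheres were exposed for 4 hours to dexamethasone (100 nM), a drug that activates the glucocorticoid receptor, or to an equal volume of ethanol as the vehicle. The 12 libraries form 4 groups of 3 labelled as biological replicates: male dexamethasone, male vehicle, female dexamethasone and female vehicle. The labels name no mutation or transgene and call the mice wild type, and they do not say whether the replicates were separate cultures, litters or animals. All p-values therefore measure the spread between these libraries, which may be partly technical.

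Caveolae are small flask-shaped pits of the plasma membrane. They are built from caveolin oligomers, with caveolin-1 as the essential scaffold in most non-muscle cells and caveolin-2 as its partner, and from a coat of cavin proteins. Flotillin-1 and flotillin-2 form hetero-oligomers in other, flat domains of the membrane and on endosomes, and belong to the SPFH family together with stomatins, prohibitins and erlins. Both kinds of domain concentrate receptors and Src-family kinases, and caveolin-1 has been linked to rapid, membrane-started signalling of the glucocorticoid receptor in neural progenitor cells.

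The values are FPKM, fragments scaled by transcript length and by a measure of library size set by the authors' software, so they can be compared between genes of different length. Fold changes below are differences of log2(FPKM + 1), which understate the change of genes with low values, and a gene was called at a limma adjusted p under 0.05 over the 14931 loci that averaged at least 1 FPKM. All 4 genes passed that filter. A response to the drug was present in these libraries: Fkbp5, Klf9 and Tsc22d3, direct targets of the glucocorticoid receptor, were higher with dexamethasone by 2.42, 2.00 and 2.44 on the log2 scale when averaged over sexes (limma adjusted p = 1.98e-05, 4.44e-07 and 0.000478). Of the FPKM in each library, 11.6% to 75.0% lay in loci without a gene name, the largest shares being in male vehicle library 3 (75.0%) and male dexamethasone library 2 (53.1%), while named protein-coding loci summed to 437353 to 509125 FPKM in each of the 12. Male dexamethasone library 2 and male vehicle library 2 also held some Xist, the RNA of the inactive X chromosome, at 14.1 and 3.04 FPKM, against 136 to 328 FPKM in the female libraries and no more than 0.0466 FPKM in the other 4 male libraries.

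All 10 neural stem cell markers averaged at least 1 FPKM, with 5832 to 7542 FPKM summed over them in each library. Most of that sum came from Fabp7 and Vim, which averaged 3503 and 2497 FPKM. Of the 10 markers 2, Msi1 and Nr2e1, were called lower with dexamethasone when averaged over sexes, where 1.53% of all loci were called. Their log2 changes were -0.64 and -0.57 (limma adjusted p = 0.015 and 0.0475), and neither was called in males or in females alone. Of 8 hypothalamic markers only Six3, whose deposited locus is joined with Six3os1_2, reached a mean of 1 FPKM, at 26.5. Six3 was almost absent from female dexamethasone library 2 and female vehicle library 2, at 0.0702 and 0.0640 FPKM, against 7.45 to 50.6 FPKM in the other 10 libraries. Of the other markers, Nkx2-1, Rax and Hmx2 averaged 0.0460, 0.00333 and 0 FPKM. Fezf1 averaged 0.665 FPKM and was listed at 0 in female dexamethasone library 2 and female vehicle library 2. Results for the 4 genes are also given without those female libraries. Microglial markers were below the filter, with 0 of 10 at a mean of 1 FPKM. In bulk RNA of this kind, fewer cells of a type and less RNA per cell cannot be told apart.

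Ranked by their mean over the 12 libraries, the 4 genes stood in the order Cav2, Cav1, Flot1 and Flot2. Cav2 averaged 70.0 ± 12.3 FPKM, Cav1 52.9 ± 19.1 FPKM, Flot1 49.7 ± 8.90 FPKM and Flot2 11.9 ± 3.60 FPKM (SD, n = 12). Flot2 was the lowest of the 4 in 12 of 12 libraries, and Cav2 was above Flot1 in 11 of 12. Cav1 and Flot1, the neighbours in the middle of this order, did not differ beyond their spread: Cav1 was above Flot1 in 5 of 6 dexamethasone libraries and in 2 of 6 vehicle libraries. Among 10979 protein-coding loci that passed the filter, the mean level of Cav2 lay at percentile 89.2, that of Cav1 at 85.0, that of Flot1 at 83.9 and that of Flot2 at 45.6. The third caveolin gene, Cav3, which is the muscle form, was listed at 0 in all 12 libraries.

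**Figure D1:**
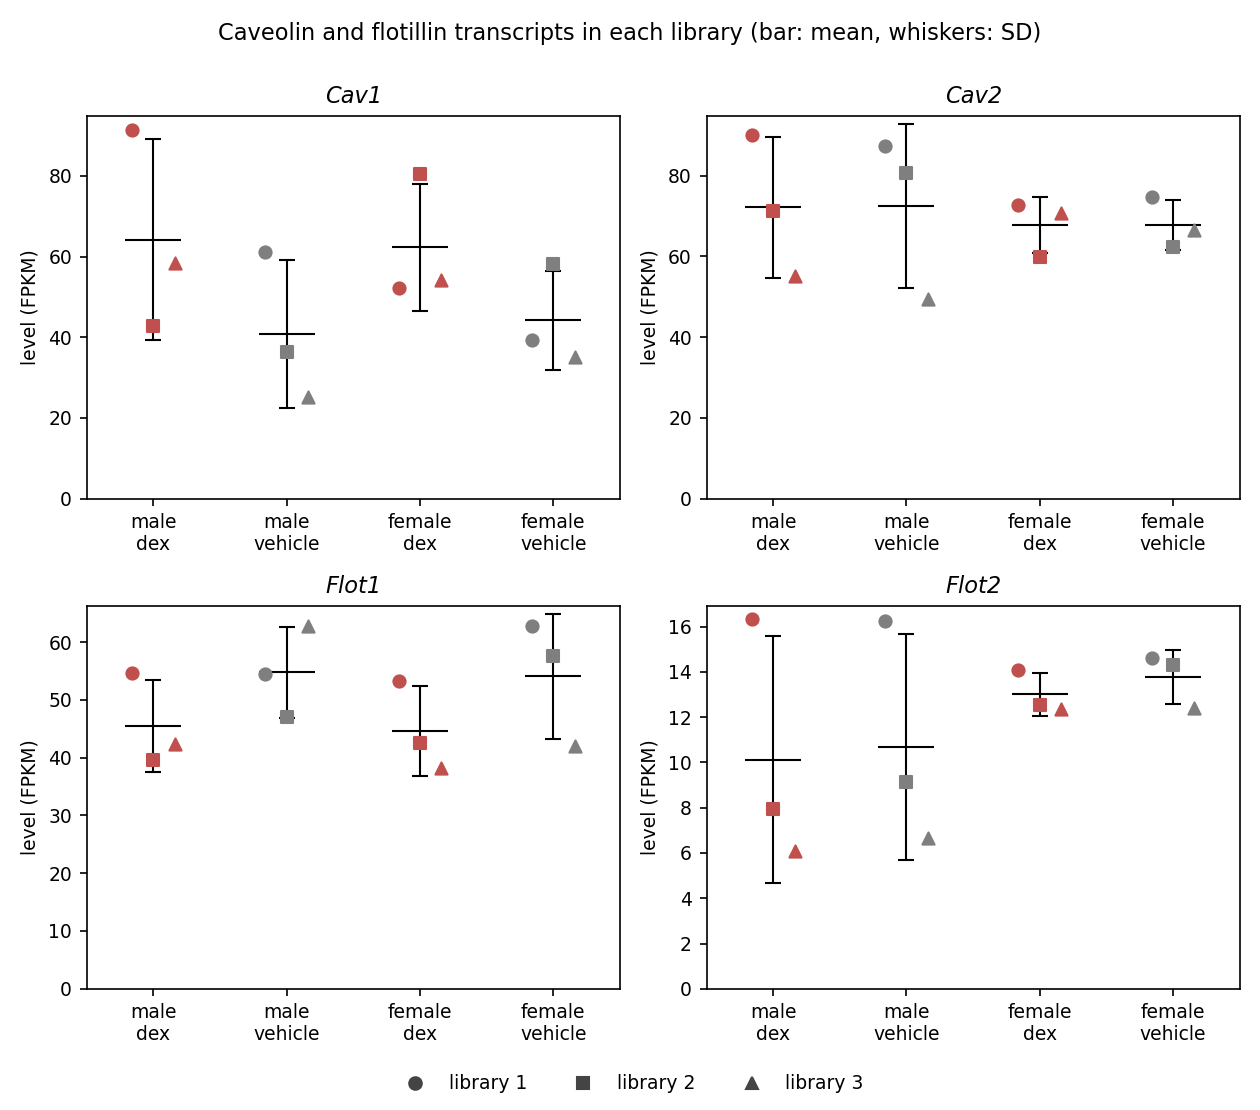
Level in FPKM (y axis, from 0, a separate scale for each gene) of Cav1, Cav2, Flot1 and Flot2 in each of the 12 libraries, by group, with the group mean (bar) and SD (whiskers, n = 3); the marker shape gives the library number. Cav1 libraries with dexamethasone lay at 42.8 to 91.5 FPKM and vehicle libraries at 25.2 to 61.1 FPKM, so the groups overlap, and Flot2 spread more among male than among female libraries.

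Caveolin-1 is the protein without which most cells form no caveolae. Its gene, Cav1 (ENSMUSG00000007655), lies on the plus strand of chromosome 6 at 17306335 to 17341452 in GRCm38, 17219 bases past the end of Cav2 (ENSMUSG00000000058, chromosome 6, 17281185 to 17289115, plus strand). Both genes share 1 locus field in the deposited table but have a row each. An antisense gene, Gm15581, spans both on the minus strand. Its own row did not exceed 0.0131 FPKM in any library, and the strand setting of the authors' counting is not stated in these sources.

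The 250 bases upstream of the main starts of these neighbouring genes are shown because Cav1 and Cav2 sit side by side and their levels are compared in what follows. They come from RefSeq (GRCm38.p6), run 5′ to 3′ on the plus strand, and cover chr6:17306085-17306334 for Cav1 and chr6:17280935-17281184 for Cav2. Capitals mark AGAACA, the core of 1 arm of a glucocorticoid receptor site, and GGGCGG, a GC box, on either strand.
Cav1: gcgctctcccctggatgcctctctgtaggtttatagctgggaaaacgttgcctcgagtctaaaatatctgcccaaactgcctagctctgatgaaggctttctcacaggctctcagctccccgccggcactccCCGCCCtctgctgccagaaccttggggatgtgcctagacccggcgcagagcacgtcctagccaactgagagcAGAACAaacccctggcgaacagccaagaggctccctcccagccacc
Cav2: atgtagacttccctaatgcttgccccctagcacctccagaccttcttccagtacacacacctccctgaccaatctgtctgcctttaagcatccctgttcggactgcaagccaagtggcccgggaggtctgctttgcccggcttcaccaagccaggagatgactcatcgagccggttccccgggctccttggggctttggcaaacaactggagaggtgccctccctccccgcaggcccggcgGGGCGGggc
The Cav1 window holds 1 AGAACA, 46 bases before the start, and 1 GC box on the minus strand (CCGCCC), 118 bases before it. The Cav2 window holds no AGAACA and 1 GC box, 9 bases before the start. AGAACA was found in 16.1% and GGGCGG in 32.7% of all 32851 RefSeq windows of this length, so neither match is unusual, and the TATAAA letters that the Cav1 window also holds on the minus strand, 221 bases before the start, were in 12.4%. The palindromic site of both arms, AGAACA and TGTTCT with any 3 bases between, was in none of the members' windows and in 0.00913% of all windows. A second Cav1 start has a window (chr6:17307390-17307639) with none of these 4 motifs, and the Flot2 window (chr11:78037681-78037930) holds 1 GC box, 30 bases before the start; 3 of the 4 genes were matched in the RefSeq promoter table. A match is a description of letters and no evidence of binding.

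With dexamethasone, the level of Cav1 was higher on average in both sexes, but the groups overlapped and the difference was not called. Cav1 stood at 91.5, 42.8 and 58.4 FPKM in male dexamethasone libraries 1, 2 and 3, against 61.1, 36.3 and 25.2 FPKM in male vehicle libraries 1, 2 and 3. In females it stood at 52.3, 80.5 and 54.1 FPKM in the dexamethasone libraries, against 39.3, 58.2 and 35.1 FPKM in the vehicle libraries. In males, vehicle library 1 was above dexamethasone libraries 2 and 3, and in females vehicle library 2 was above dexamethasone libraries 1 and 3, so the groups overlapped in each sex. Between libraries of the same sex and number, however, the dexamethasone library was the higher in every case. A fit with number as a block is among the alternatives below. The labels do not say what a number marks. The highest library of all was male dexamethasone library 1 and the lowest was male vehicle library 3.

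Cav1 averaged 64.2 ± 24.9 FPKM in male dexamethasone and 40.9 ± 18.4 FPKM in male vehicle libraries, and 62.3 ± 15.8 FPKM in female dexamethasone and 44.2 ± 12.3 FPKM in female vehicle libraries (SD, n = 3 each). The limma log2 difference was 0.66 in males (SE 0.36, 95% interval -0.14 to 1.47, adjusted p = 0.837) and 0.49 in females (SE 0.36, interval -0.32 to 1.30, adjusted p = 0.767). Leaving out 1 library moved the difference both ways, to 0.37 to 0.99 in males and 0.29 to 0.70 in females. The same-numbered library of the other treatment stayed in these fits. The male difference was 0.38 without male dexamethasone library 1 and 0.37 without male vehicle library 3. The female difference was 0.29 without female dexamethasone library 2. Averaged over sexes the difference was 0.58 (SE 0.26, interval 0.00596 to 1.15), a fold of 1.49 on the log2(FPKM + 1) scale. Its unadjusted limma p of 0.0481 ranked 1982 of 14931, and its adjusted p was 0.362. An unadjusted p under 0.05 was reached by 2031 of the loci in that comparison. Without male dexamethasone library 2 and male vehicle library 3, the libraries with the largest share of unnamed loci, the averaged difference was 0.56 (SE 0.23, limma adjusted p = 0.540). Without male dexamethasone library 2 alone it was 0.70 (limma adjusted p = 0.355), and without male vehicle library 2 it was 0.56 (limma adjusted p = 0.498). Without both female libraries with almost no Six3, an alternative chosen after seeing the data, it was 0.58 (SE 0.28, limma adjusted p = 0.555).

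None of the 4 genes was called in any dexamethasone comparison. Of all loci tested, 0.315% were called in males, 0.482% in females and 1.53% when averaged over sexes, so a count of 0 of 4 is near the background and says nothing particular about these genes. At an unadjusted limma p under 0.05, 0 of 4 passed in males, 0 in females and 1, Cav1, when averaged over sexes. Of all loci tested, 6.38%, 8.02% and 13.6% passed in these comparisons, so these counts too say nothing particular about the 4 genes. The difference between the sexes in the response was called for 0.0335% of loci and for none of the 4 genes. For Cav1 the female response minus the male response was -0.17 (SE 0.51, interval -1.31 to 0.97, limma adjusted p = 1). That interval includes both a much smaller and a much larger response in females.

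Caveolin-2 is held in the secretory pathway in the absence of caveolin-1 and reaches the surface as a hetero-oligomer with it. Cav2 stood at 90.0, 71.2 and 55.2 FPKM in male dexamethasone libraries 1, 2 and 3, against 87.3, 80.6 and 49.4 FPKM in male vehicle libraries 1, 2 and 3. In females it stood at 72.6, 59.8 and 70.7 FPKM in the dexamethasone libraries, against 74.6, 62.3 and 66.4 FPKM in the vehicle libraries. The groups overlapped almost entirely in each sex, with library 1 the highest of the 3 in every group. Cav2 averaged 72.1 ± 17.4 FPKM in male dexamethasone and 72.4 ± 20.2 FPKM in male vehicle libraries, and 67.7 ± 6.91 FPKM in female dexamethasone and 67.8 ± 6.28 FPKM in female vehicle libraries (SD, n = 3 each). Averaged over sexes its log2 difference was 0.0033 (SE 0.16, interval -0.35 to 0.36, limma adjusted p = 0.998). That interval leaves room for a difference of up to about that size in either direction.

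The balance of both caveolins within a library does not depend on how the library was scaled. The ratio of Cav1 to Cav2 was 1.02, 0.601 and 1.06 in male dexamethasone libraries 1, 2 and 3, against 0.700, 0.451 and 0.510 in male vehicle libraries 1, 2 and 3. In females it was 0.720, 1.35 and 0.765 in the dexamethasone libraries, against 0.527, 0.935 and 0.529 in the vehicle libraries. Cav1 was thus above Cav2 in 3 of 6 dexamethasone libraries and in 0 of 6 vehicle libraries, while the lowest dexamethasone ratios lay within the range of the vehicle ratios. Between libraries of the same sex and number the ratio was higher with dexamethasone in every case. A test by number is among the alternatives below. The mean log2 ratio was higher with dexamethasone by 0.59, by 0.67 in males and by 0.50 in females. The exact two-sided permutation test within sexes, with 400 splits, gave p = 0.05, which does not pass a threshold of p under 0.05; the smallest p it allows is 0.005. Leaving out 1 library at a time, the exact p ran between 0.025 and 0.11, and it was under 0.05 without male dexamethasone library 2 (0.025), female vehicle library 2 (0.025), female dexamethasone library 1 (0.04) or male vehicle library 1 (0.045). It was 0.0333 without both female libraries with almost no Six3.

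**Figure D2:**
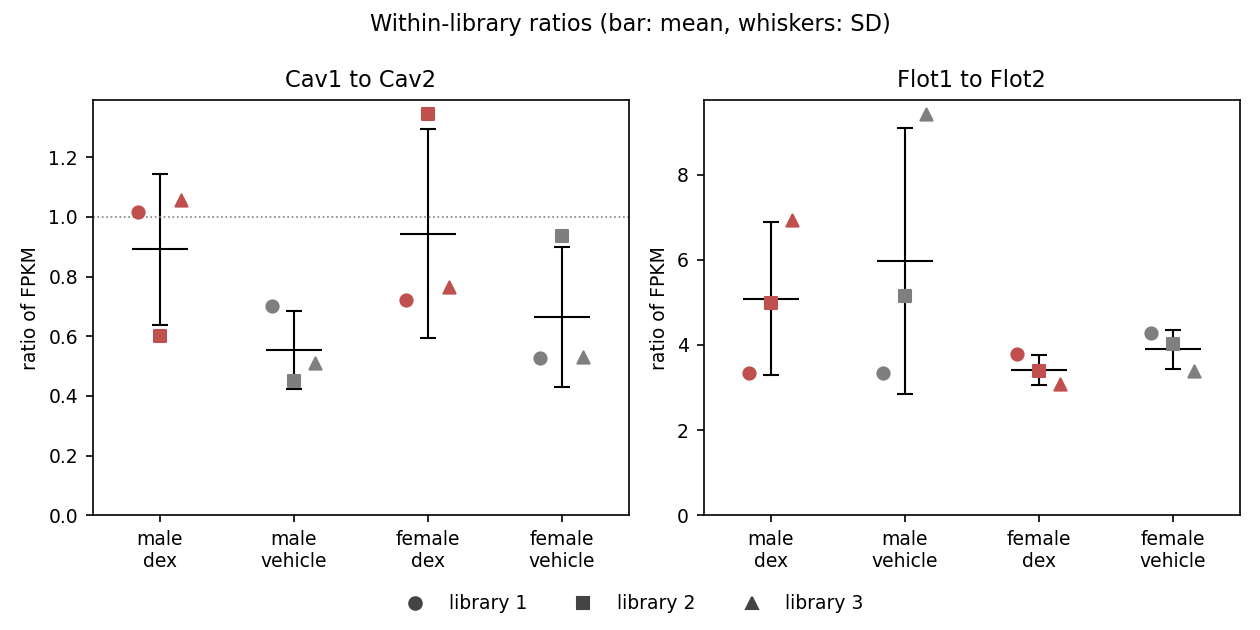
Ratio of FPKM values within each library (y axis, no unit, from 0) of Cav1 to Cav2 and of Flot1 to Flot2 by group, with the mean (bar) and SD (whiskers, n = 3); the dotted line marks equal levels. In 3 of 6 dexamethasone libraries and 0 of 6 vehicle libraries Cav1 was above Cav2, and the Flot1 to Flot2 ratio was 3.34 to 9.43 in males but 3.09 to 4.29 in females.

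Flotillin-1 was the more abundant flotillin transcript in every library. Its gene, Flot1 (ENSMUSG00000059714), lies on the plus strand of chromosome 17 at 35823230 to 35832791. It stood at 54.6, 39.5 and 42.3 FPKM in male dexamethasone libraries 1, 2 and 3, against 54.4, 47.1 and 62.8 FPKM in male vehicle libraries 1, 2 and 3. In females it stood at 53.3, 42.5 and 38.2 FPKM in the dexamethasone libraries, against 62.7, 57.5 and 42.0 FPKM in the vehicle libraries. Dexamethasone libraries 2 and 3 were the low ones in both sexes, while library 1 of each dexamethasone group, and female dexamethasone library 2 by a small margin, lay inside the range of their vehicle group.

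Flot1 averaged 45.5 ± 8.01 FPKM in male dexamethasone and 54.8 ± 7.89 FPKM in male vehicle libraries, and 44.7 ± 7.80 FPKM in female dexamethasone and 54.1 ± 10.8 FPKM in female vehicle libraries (SD, n = 3 each). The log2 difference was -0.27 in males (SE 0.19, limma adjusted p = 0.861) and -0.26 in females (SE 0.19, limma adjusted p = 0.759). Leaving out 1 library, it lay at -0.40 to -0.17 in males, with -0.40 without dexamethasone library 1, -0.18 without dexamethasone library 2 and -0.17 without vehicle library 3. In females it lay at -0.43 to -0.15, with -0.40 and -0.16 without dexamethasone libraries 1 and 3 and -0.15 and -0.43 without vehicle libraries 1 and 3. Averaged over sexes it was -0.27 (SE 0.13, interval -0.57 to 0.03, limma adjusted p = 0.415), and without male dexamethasone library 2 and male vehicle library 3 it was -0.17 (SE 0.15, limma adjusted p = 0.786), while in males alone it was then -0.074. Without both female libraries with almost no Six3 the averaged value was -0.22 (SE 0.16, limma adjusted p = 0.687). The direction was thus opposite to that of Cav1, and neither was called.

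Flotillin-2 is the partner that stabilises flotillin-1 in the shared oligomer. Its gene, Flot2 (ENSMUSG00000061981), lies on the plus strand of chromosome 11 at 78037931 to 78060434. It stood at 16.3, 7.93 and 6.09 FPKM in male dexamethasone libraries 1, 2 and 3, against 16.3, 9.13 and 6.66 FPKM in male vehicle libraries 1, 2 and 3. In females it stood at 14.1, 12.5 and 12.4 FPKM in the dexamethasone libraries, against 14.6, 14.3 and 12.4 FPKM in the vehicle libraries. Male libraries numbered 1 were the highest of the 12 and male libraries numbered 2 and 3 the lowest, in both treatments, and all female libraries lay between them.

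Averaged over sexes, the dexamethasone difference of Flot2 was -0.09 (SE 0.24, interval -0.62 to 0.45, limma adjusted p = 0.906), with group means of 10.1 ± 5.46 FPKM in male dexamethasone and 10.7 ± 4.99 FPKM in male vehicle libraries, and 13.0 ± 0.951 FPKM in female dexamethasone and 13.8 ± 1.21 FPKM in female vehicle libraries (SD, n = 3 each). The ratio of Flot1 to Flot2 was 3.34, 4.99 and 6.95 in male dexamethasone libraries 1, 2 and 3, against 3.35, 5.15 and 9.43 in male vehicle libraries 1, 2 and 3. In females it was 3.78, 3.39 and 3.09 in the dexamethasone libraries, against 4.29, 4.02 and 3.39 in the vehicle libraries. Between libraries of the same sex and number the ratio was lower with dexamethasone in every case, in male libraries 1 by very little. A test by number is among the alternatives below. The ratios of the 2 treatments overlapped in each sex, and the mean log2 ratio differed by -0.18 (exact two-sided permutation test within sexes, p = 0.49). Without male vehicle library 3 that difference was 0.02.

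Between the sexes, Flot2 averaged 13.4 ± 1.06 FPKM in the 6 female libraries and 10.4 ± 4.69 FPKM in the 6 male libraries (SD). The female minus male difference was 0.43 on the log2 scale (SE 0.24, interval -0.11 to 0.97, limma adjusted p = 0.673), and it was 0.25 without male dexamethasone library 2 and male vehicle library 3. The coefficient of variation of Flot2 was 7.90% over female and 45.1% over male libraries, and that of Cav2 was 8.72% and 23.4%; no test of this spread was made. For Cav1, Cav2 and Flot1 the female minus male differences were 0.08, -0.06 and -0.03, with limma adjusted p of 0.942, 0.925 and 0.973. The share of loci called between the sexes was 0.107%, and 0 of the 4 genes were among them.

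**Figure D3:**
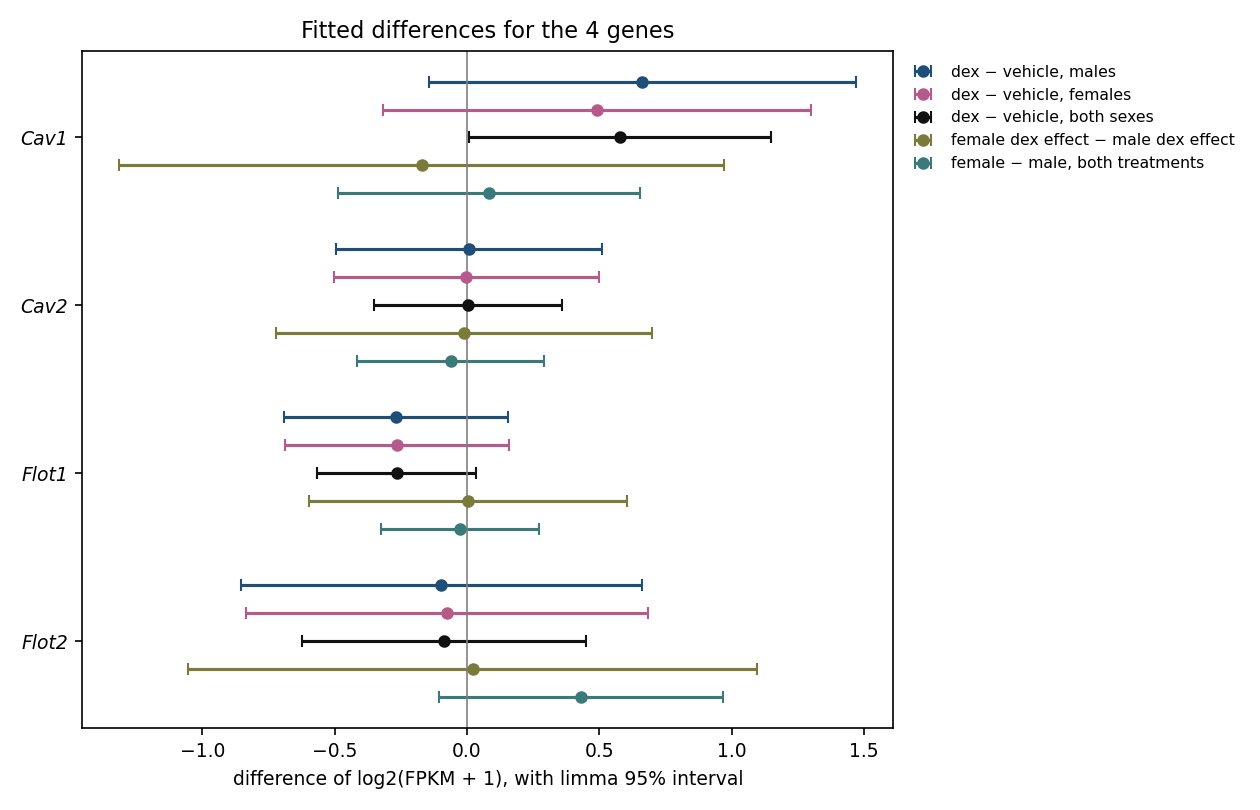
Fitted differences of log2(FPKM + 1) for the 4 genes (x axis) with limma 95% intervals, for dexamethasone minus vehicle in either sex and as the average of both sexes, for the female response minus the male response, and for female minus male. Only the averaged Cav1 interval, 0.00596 to 1.15, leaves out 0, and no difference passed adjustment over all loci.

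Cavins coat caveolae and are needed, with caveolin-1, to shape them. Cavin1, deposited as Ptrf, is the core coat protein, and averaged 26.8 ± 5.33 FPKM in male dexamethasone and 34.7 ± 9.71 FPKM in male vehicle libraries, and 28.8 ± 13.2 FPKM in female dexamethasone and 35.6 ± 10.8 FPKM in female vehicle libraries (SD, n = 3 each). Its averaged log2 difference was -0.35 (SE 0.24, limma adjusted p = 0.556). Cavin3, deposited as Prkcdbp, binds Cavin1 and averaged 17.3 ± 7.09 FPKM in male dexamethasone and 18.2 ± 8.75 FPKM in male vehicle libraries, and 21.2 ± 7.57 FPKM in female dexamethasone and 26.0 ± 8.84 FPKM in female vehicle libraries (SD, n = 3 each). Its averaged log2 difference was -0.16 (limma adjusted p = 0.843). Cavin2 (Sdpr) and the muscle form Cavin4 (Murc) averaged 0.370 and 0.776 FPKM and did not pass the filter. Of the caveolin and cavin genes, Cav1, Cav2, Cavin1 and Cavin3 averaged more than 10 FPKM, and the averaged differences of both cavins had the sign opposite to that of Cav1.

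Genes for proteins that shape the neck of caveolae or other membranes (EHD ATPases, pacsins and dynamins) were tested for 9 of 10, and none was called in either direction; their median averaged log2 difference was -0.14, within -0.34 to 0.30, against -0.00674 over all loci tested. Ehd1 at -0.23 (limma adjusted p = 0.136) and Ehd3 at 0.30 (limma adjusted p = 0.352) had unadjusted p under 0.05, as did 13.6% of all loci tested. Both were picked for naming after their values were seen. Of the SPFH genes, the flotillins included, 9 of 10 were tested and none was called, with a median of -0.09 and a range of -0.27 to 0.10; Flot1 had the lowest value in that list. Stoml3 did not pass the filter, at a mean of 0.0728 FPKM. Among 15 signalling partners of membrane domains, such as Src-family kinases and G-protein subunits, none was called, with a median of 0.02 and a range of -0.35 to 0.28. The lowest value there was that of Insr, the insulin receptor (limma adjusted p = 0.325), and Gja1, the gap-junction protein connexin 43, was at -0.10; both were named after their values were seen. The same lists held no called gene in males, in females or in the difference between the sexes' responses.

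**Figure D4:**
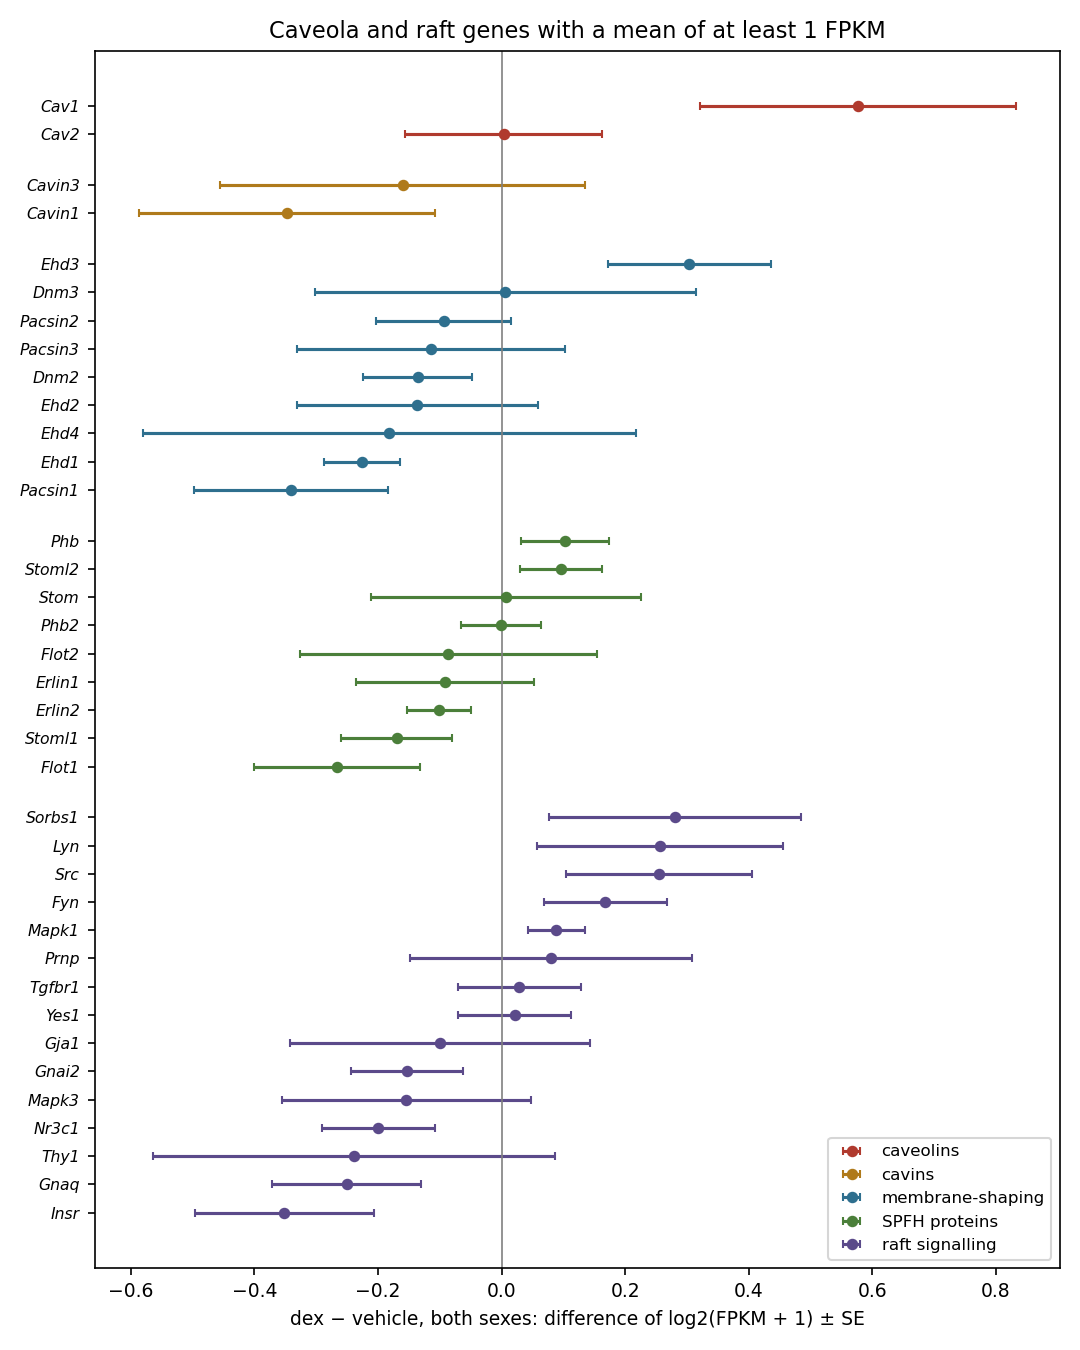
Dexamethasone minus vehicle averaged over sexes, as the difference of log2(FPKM + 1) with its SE (x axis), for each gene of the caveolin, cavin, membrane-shaping, SPFH and raft-signalling lists that averaged at least 1 FPKM. Cav1 at 0.58 is the highest point and Insr at -0.35 the lowest, and no gene shown was called.

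Markers of cells rich in caveolae were set beside these values. Of 12 endothelial markers 4 averaged at least 1 FPKM: Eng, Plvap (3.92 FPKM), Flt1 (2.08 FPKM) and Vwf (1.44 FPKM). Cdh5 and Cldn5, which define endothelium, were the lowest of the list and averaged 0.00215 and 0.00643 FPKM. The endothelial markers summed to 43.2 to 69.9 FPKM in male dexamethasone and 50.3 to 64.9 FPKM in male vehicle libraries, and to 49.3 to 65.5 FPKM in female dexamethasone and 51.8 to 62.7 FPKM in female vehicle libraries. Most of that sum came from Eng, whose deposited locus is joined with Ak1 and averaged 48.0 FPKM. Of 12 mural and fibroblast markers 3 averaged at least 1 FPKM, Acta2 at 27.9, Cspg4 at 17.0 and Tagln at 6.51 FPKM, while Lum was at 0 in all 12 libraries. That list summed to 47.6 to 70.1 FPKM in male dexamethasone and 33.9 to 65.0 FPKM in male vehicle libraries, and to 48.6 to 62.7 FPKM in female dexamethasone and 44.6 to 54.6 FPKM in female vehicle libraries. Cspg4, which pericytes and oligodendrocyte progenitors express, was called higher with dexamethasone, by 0.76 on the log2 scale averaged over sexes (limma adjusted p = 0.0114). Its part in the Cav1 values was not tested.

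Across the 12 libraries, after each sex's mean was subtracted, the 4 genes varied together to very different degrees. These correlations describe libraries that share their treatment, preparation and scaling, and carry no test. Pearson's r of log2(FPKM + 1) was 0.835 for Cav2 with Flot2, 0.536 for Cav1 with Flot2, 0.380 for Cav1 with Cav2 and 0.362 for Flot1 with Flot2. It was 0.0431 for Cav2 with Flot1 and -0.168 for Cav1 with Flot1. Partners of 1 complex were therefore not the pairs with the highest r here. With the cavins, Flot2 and Cavin3 had r = 0.831, Cav2 and Cavin3 0.724, and Cav1 and Cavin1 -0.680.

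Among 9181 named loci that averaged at least 5 FPKM with no zero, the 5 with the pattern most like each gene were found by the same r over 12 libraries. For Cav1 they were Tspan31 (0.942), Tubd1 (0.930), Trim2 (0.926), Cep57l1 (0.923) and Rnf34 (0.915). Those of Cav2 were Rnf11 (0.958), Pmm1 (0.944), S100a16 (0.930), Acta2 (0.929) and Gatm (0.926). For Flot1 they included Tbc1d4 (0.945), Igfbp5 (0.898), Appl2 (0.896) and Rilpl1 (0.883). For Flot2, Ddah1 (0.972), Cmtm6 (0.965), Sfxn5 (0.960), Shisa4 (0.958) and Fam177a (0.954) led. No gene appears in the lists of 2 members.

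The protein-coding neighbours on the chromosome were looked at as well, the nearest 2 on either side with Cav1 and Cav2 as 1 block. Of these 12 genes 9 were tested and none was called in a dexamethasone comparison. Beside the caveolins, Tes, Tfec and Met averaged 0.563, 0.00270 and 0.859 FPKM, below the filter, and Capza2, an actin-capping subunit, had an averaged log2 difference of 0.15. Cav1 and Cav2 were thus far above Tes, Tfec and Met in level, and below Capza2, which averaged 166 FPKM. Near Flot1, the stress-response gene Ier3, which ends 307 bases before it, was at -0.79 (limma adjusted p = 0.441), and Ddr1, Tubb5 and Mdc1 were at -0.27, 0.01 and -0.26. Near Flot2, Dhrs13, Phf12, Eral1 and Fam222b were at -0.03, -0.16, 0.14 and -0.23, all with limma adjusted p of at least 0.292.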

How the data were processed

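RNA was sequenced from 12 neurosphere libraries in 4 groups of 3, run on 2 lanes per the series' design text. Per the submitters' processing notes, TopHat2 2.0.9, Cufflinks 2.2.1 and Cuffdiff 2.2.1 were used with GRCm38. The deposited table gives FPKM per locus and library as the authors computed them, with no read counts, so the depth per library and counting error are unknown. An exact 0 in it can be a failed estimate.

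From the table, limma 3.58.1 (R 4.3.3) was fitted to log2(FPKM + 1) with 1 mean per group, a trended prior and Benjamini-Hochberg adjustment over the 14931 of 40597 loci whose mean reached 1 FPKM. Within-library ratios were tested by exact permutation within sexes. The procedure was tested on simulated data. Gene positions are from GENCODE M21. Named are the 4 genes, Cav3, the cavins, called genes of the lists, the nearest coding neighbours and the 5 nearest patterns. Of those patterns, 1 is not reported here. The members and lists were chosen with earlier results of these data known. Alternatives covered pseudocount, filter, scaling, weights, a replicate block and leaving out libraries.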

Additional observations from a re-analysis of the deposited data

How the results depend on the processing

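Over 488 alternative fits of the 20 fitted differences of the 4 genes, none was called, and the lowest limma adjusted p was 0.0618. The sign was that of the reported value in 427 and opposite in 61. Cav1 kept its positive and Flot1 its negative dexamethasone difference under all alternatives run, in each sex and averaged over sexes. Leaving out 1 library, the averaged Cav1 difference was 0.43 to 0.74 (limma adjusted p 0.211 to 0.584). Depth is unknown and each group holds 3 libraries, which limits what could be called. Where a value turned or moved, the cause was not tested.

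Same-numbered libraries correlated in their deviations from the group means at 0.0819 to 0.167, over 0.1 in 4 of 6 pairs, and 10 of 12 libraries correlated best with their own number, and the labels do not say what a number marks. The male libraries that held some Xist were both numbered 2, and so were the female libraries with almost no Six3. Since not every pair was over 0.1, the fit without the block is the one reported. That libraries share a culture by number was not tested. With a replicate block, the averaged Cav1 difference had an SE of 0.12 and a limma adjusted p of 0.0618. Called loci under the block were 148 in males, 187 in females, 804 averaged over sexes (420 higher and 384 lower, 52.2% higher) and 8 for the difference between the sexes' responses. With sign flips within numbers, the exact p was 0.03125 for both the Cav1 to Cav2 ratio (0.59) and the Flot1 to Flot2 ratio (-0.18), the smallest p those flips can give.

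Called loci in males (47 in the fit of the report) were 28 with no filter, 95 with array weights, 18 in a fit of males alone and 19 without male dexamethasone library 2 and male vehicle library 3. In females (72) a fit of females alone gave 33. Averaged over sexes (229), leaving out both of those libraries gave 114. For the difference between the sexes' responses (5), no filter gave 11, protein-coding loci alone 1 and leaving out both libraries 8. Between the sexes (16), protein-coding loci alone gave 7. Without female dexamethasone library 2 and female vehicle library 2, an alternative chosen after seeing the data, 42 loci were called in females, 135 averaged over sexes, 13 for the difference between responses and 27 between the sexes. Leaving out 1 library at a time, the counts were 28 to 49 in males, 31 to 74 in females, 146 to 215 averaged over sexes, 4 to 14 for the difference between responses and 15 to 28 between the sexes. The counts that moved by over 1.5 times were those without male vehicle library 1 (29), 2 (28) or 3 (31) in males, and in females those without dexamethasone library 1 (31) or 3 (45) or without vehicle library 3 (38). Averaged over sexes it was the count without female dexamethasone library 1 (146), and between the sexes that without female vehicle library 1 (28). For the difference between responses they were the counts that left out library 1 (10) or 3 (9) of the male dexamethasone group, library 1 (8) of the male vehicle group, library 2 (10) of the female dexamethasone group, and library 1 (14) or 2 (11) of the female vehicle group.

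Some differences of the 4 genes, none of them called, turned their sign. Quantile normalization gave Cav2 -0.033 in males and -0.049 averaged over sexes, and for the difference between responses -0.013 for Flot1 and -0.0072 for Flot2. Median-of-ratios rescaling gave Flot1 -0.0030 for the difference between responses. Array weights gave Cav2 -0.10 in males, -0.054 averaged over sexes and 0.094 for the difference between responses, Cav1 0.067 for the difference between responses, and Flot1 0.083 for female minus male. Without male dexamethasone library 2 and male vehicle library 3, Cav2 was -0.25 in males, -0.12 averaged over sexes and 0.25 for the difference between responses, Flot1 was -0.19 for the difference between responses, Cav1 was -0.19 for female minus male, and the log2 Flot1 to Flot2 ratio was 0.013. Without both female libraries numbered 2, Cav2 was 0.025 in females, 0.017 for the difference between responses and 0.0097 for female minus male, Cav1 was -0.12 for female minus male, and the log2 Cav1 to Cav2 ratio was 0.58 (exact p = 0.0333).

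Leaving out 1 library at a time gave these ranges. Cav2 ran from -0.24 to 0.18 in males, -0.060 to 0.084 in females and -0.12 to 0.091 averaged over sexes. Flot2 ran from -0.47 to 0.23 in males and -0.27 to 0.076 averaged over sexes. For the difference between responses, Cav1 ran from -0.50 to 0.12, Cav2 from -0.19 to 0.24, Flot1 from -0.17 to 0.14 and Flot2 from -0.30 to 0.40. For female minus male, Cav1 ran from -0.063 to 0.25, Cav2 from -0.19 to 0.024 and Flot1 from -0.093 to 0.058. The log2 ratio difference ran from 0.44 to 0.72 for Cav1 to Cav2 and from -0.35 to 0.021 for Flot1 to Flot2.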
